A study of Mus musculus with 87 samples.

Results

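Car3, Inmt, Hsd3b5 and Gm4956 are genes of the mouse liver that stood far below their level after sham surgery in the first day after partial hepatectomy (PH), the surgical removal of most of the liver. They were selected on the measured values themselves, for falls against sham that were among the largest at 10 or 20 h. They are 4 of the 37991 genes in the table, each with 1 row, and all 4 passed the filter on low values that kept 15396 genes.

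The study followed gene expression through mouse liver regeneration by sequencing the poly(A) RNA of single livers (RNA-Seq). All animals were C57BL/6 mice of 12 to 14 weeks, entrained to night feeding, and per the study's methods they were males. Unoperated, sham-operated and resected livers were compared, and none carried a transgene or deletion. Unoperated livers (C) were taken at Zeitgeber time (ZT) 2, the hour of surgery (C0, n = 9), at ZT6 (C4, n = 3) and 4 weeks later (C4W, n = 2). Sham livers (S) came from mice that had the anesthesia and the opening of the abdomen without resection, and were taken after 1 h (S1, n = 6), 4 h (S4, n = 5), 10 h (S10, n = 3), 20 h (S20, n = 3) and 48 h (S48, n = 3). PH livers (X) were taken after 1 h (X1, n = 6), 4 h (X4, n = 3), 10 h (X10, n = 6), 20 h (X20, n = 6), 28 h (X28, n = 3), 36 h (X36, n = 6), 44 h (X44, n = 3), 48 h (X48, n = 5), 72 h (X72, n = 3), 1 week (X1W, n = 3) and 4 weeks (X4W, n = 2). Values are deposited as log2 RPKM, the log2 of the reads mapped to a gene, scaled to the length of its exons and to the depth of the library, so a difference of 1 is a 2-fold difference.

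Hepatocytes make most of the RNA of the liver, and many of their metabolic enzymes are known to be turned down while the organ regrows. Car3 encodes carbonic anhydrase III, a cytosolic enzyme that is abundant in liver, skeletal muscle and fat and hydrates carbon dioxide slowly. Inmt encodes indolethylamine N-methyltransferase, which transfers methyl groups from S-adenosylmethionine to amines and related compounds. Hsd3b5 is a liver member of the 3-beta-hydroxysteroid dehydrogenase family and is known for its higher level in male than in female mouse livers, a pattern that depends on the pulses of growth hormone in males and on STAT5. Gm4956 is a predicted gene whose role is left unstated here.

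In mm9, the build of the files, Car3 (ENSMUSG00000027559) lies on the plus strand at chr3:14863538-14872351 with 7 exons. Inmt (ENSMUSG00000003477) lies on the minus strand at chr6:55120620-55125037 with 3 exons. Hsd3b5 (ENSMUSG00000038092) lies on the minus strand at chr3:98422559-98434232 with 3 exons, in a cluster of Hsd3b genes. Gm4956 (ENSMUSG00000025936) lies on the minus strand at chr1:21275327-21288393 with 6 exons, 19885 bases from Gsta3, a glutathione S-transferase gene on the opposite strand. The table lists all 4 as protein-coding genes, whereas RefSeq (GRCm38.p6) lists Gm4956 as a transcribed pseudogene. Of the 100-base windows of their protein-coding transcripts, the length of 1 read, none of Car3, Inmt or Gm4956 occurred in the transcripts of another protein-coding gene. For Hsd3b5, 113 of 1505 windows (7.51%) were shared with Hsd3b4, Gm10681 or Gm4450, among which such reads were split by the counting.

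The start of 2 of these genes is shown because the genes moved together through the time course, which includes the times that chose them. RefSeq promoter windows (GRCm38.p6, minus strand, 250 bases before to 50 after the start) were given for Inmt at chr6:55174941-55175240 and for Hsd3b5 at chr3:98645485-98645784. They are written 5′ to 3′, and capitals mark letters that match a motif searched for.
Inmt: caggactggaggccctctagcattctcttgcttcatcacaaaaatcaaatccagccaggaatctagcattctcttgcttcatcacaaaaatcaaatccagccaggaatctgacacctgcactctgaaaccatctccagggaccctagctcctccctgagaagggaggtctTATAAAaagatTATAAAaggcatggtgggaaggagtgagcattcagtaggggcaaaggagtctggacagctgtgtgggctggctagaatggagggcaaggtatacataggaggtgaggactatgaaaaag
Hsd3b5: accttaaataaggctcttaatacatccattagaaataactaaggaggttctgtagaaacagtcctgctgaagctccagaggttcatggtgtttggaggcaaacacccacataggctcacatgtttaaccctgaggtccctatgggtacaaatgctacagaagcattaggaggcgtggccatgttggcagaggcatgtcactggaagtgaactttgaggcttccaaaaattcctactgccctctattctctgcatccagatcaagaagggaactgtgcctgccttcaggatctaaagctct
Both strands were searched for TTCNNNGAA (STAT), TTGCGCAA and TTGCNNAA (C/EBP, where any match to the first is also one to the second), TGTTTAC (FoxA), AGGTCA (a nuclear receptor site), GTTAATNAT (HNF1) and TATAAA. The Inmt window held TATAAA at 2 places, starting 80 and 69 bases before the start, and TATAAA was in 13.6% of all 32851 windows. No letters of the Hsd3b5 window matched, and TTCNNNGAA was in 8.30% of all windows. RefSeq gives Hsd3b5 a span of 26899 bases where the model used for the mm9 files has 11674, so the start shown need not be the one of the counted transcript.

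The depth recovered from the spacing of low values ranged from 12200000 to 48800000 counted reads a library (median 26700000). The fewest reads behind a value were 266 for Car3 (X20 replicate 6), 72 for Inmt (X20 replicate 6), 5 for Hsd3b5 (X10 replicate 1) and 4 for Gm4956 (X48 replicate 5), so the lowest values of the last 2 genes carry a large counting error. X28 replicate 2 stood apart, with fewer genes at 0 (41.4%, where 52.9% of all values were at 0). Of its low values 37.2% lay at whole reads, where the median library had 76.3%, so its estimated depth is less certain. All 12 hepatocyte markers were detected, and albumin had group means from 14.1 to 15.3 log2 RPKM. In whole livers, fewer cells of a type and less RNA per cell cannot be told apart.

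At rest the 4 genes covered a wide range of levels. In C0 livers Car3 had a mean of 10.79 log2 RPKM ± 0.27 (SD, n = 9), rank 52 of the 15396 genes, with a lowest value of 10.49, a median of 10.76 and a highest of 11.36. Inmt had 8.19 ± 0.19 (8.01, 8.13 and 8.66), rank 176. Hsd3b5 had 6.84 ± 0.34 (6.17, 6.82 and 7.24), rank 435. Gm4956 had 4.47 ± 0.20 (4.12, 4.50 and 4.80), rank 1629. At ZT6 without surgery, 1 of the 4 genes was called lower, as were 2.08% of all genes tested (73.6% of all calls were higher, or 51.4% with the libraries set to a common median). That gene was Gm4956, with 3.23, 3.78 and 3.66 log2 RPKM in C4, all below the C0 livers, and a log2 fold change of -0.90 ± 0.29 (SE, limma adjusted p = 0.0284). The call was lost without any 1 of the C4 livers (adjusted p from 0.0645 to 0.150) and with C0 replicates 7 to 9 alone as the control. Per the study's supplement the C4 livers came from 1 experimental period and the C0 livers from several, so period was not separated from hour here.

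**Figure D1:**
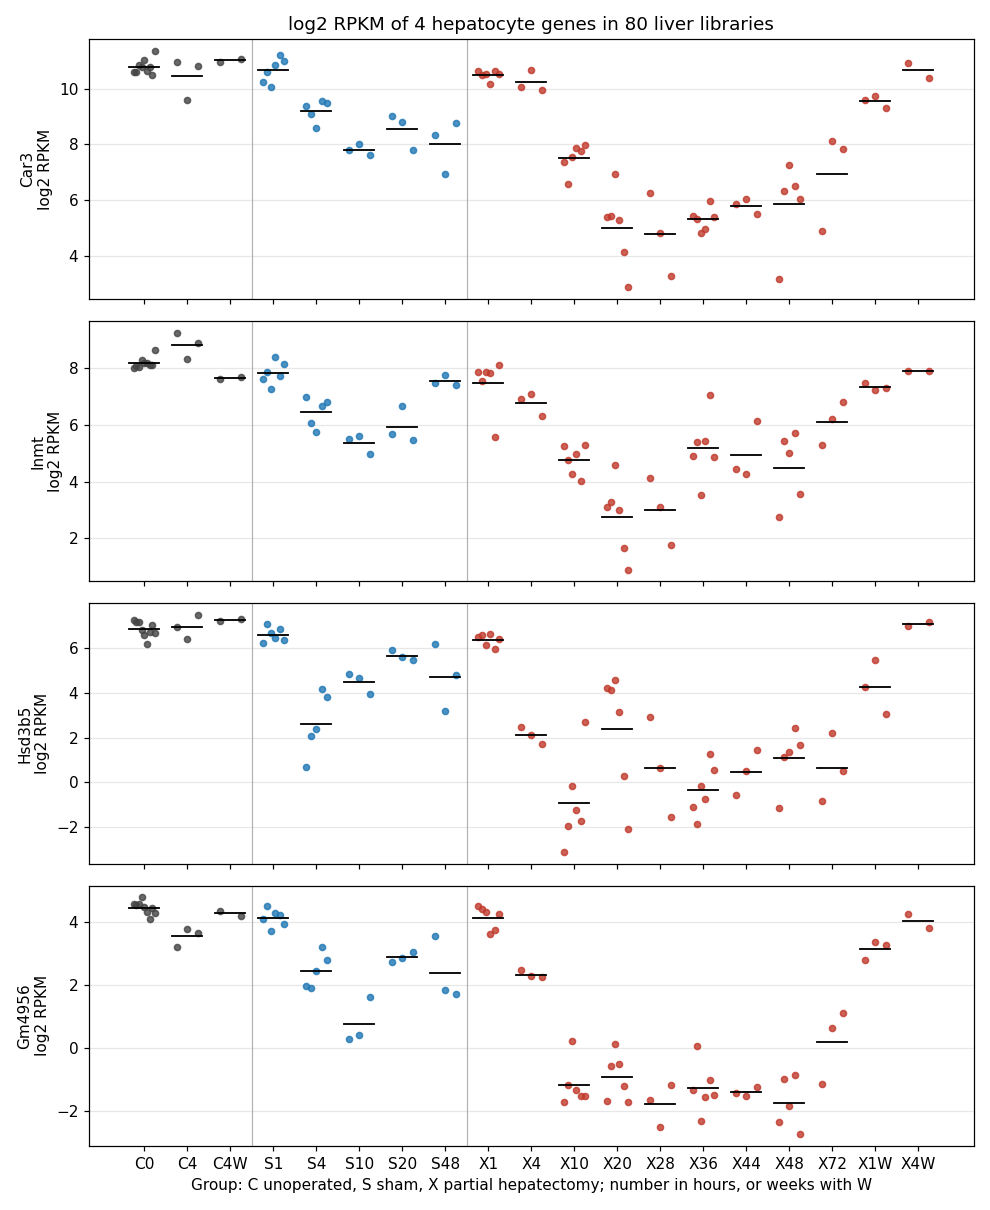
Log2 RPKM of Car3, Inmt, Hsd3b5 and Gm4956 (rows) in each of 80 livers (points), by group on the horizontal axis, with a line at each group's mean. The group means of C0 and the 1 h livers were high for all 4 genes. The lowest group mean was that of X28 for Car3 (4.77) and Gm4956 (-1.79), X20 for Inmt (2.74) and X10 for Hsd3b5 (-0.91). Values of X10 and X20 were used to choose the genes.

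The values that chose the genes are those at 10 and 20 h. They are given here as a description, and the limma call used below serves only to set the ranking. Among genes with a mean above 0 log2 RPKM in PH or sham livers, no overlap of libraries and a call in limma (adjusted p under 0.05 and a log2 fold change beyond 0.5), 379 were lower in PH than in sham at 10 h and 272 at 20 h. Hsd3b5 stood first at 10 h, with a log2 fold change of -4.64, and Gm4956 was at place 28 with -1.48. Car3 (-0.30) and Inmt (-0.60) were not in that ranking. Next after Hsd3b5 at 10 h came Cyp7a1 (-3.63), the rate-limiting enzyme of bile acid synthesis, then Derl3 (-2.86), Keg1 (-2.37), Prtn3 (-2.20) and Prok1 (-2.08). At 20 h the 4 genes took the first 4 places, in the order Car3 (-3.52), Gm4956 (-3.27), Inmt (-3.13) and Hsd3b5 (-3.06). The next places went to Thrsp (-2.54), which encodes a nuclear protein of lipogenesis, and the pseudogene Mup-ps20 (-2.48). By that call, 2 of the 4 genes at 10 h and 4 at 20 h were lower, where the shares of all genes were 3.62% and 2.61%. The choice of the genes made such calls likely beforehand, so nothing is read from these counts.

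In single livers, the paths at 10 and 20 h differed between the genes. Hsd3b5 had 4.84, 4.66 and 3.93 log2 RPKM in S10, and its 6 X10 livers ran from -3.11 through a median of -1.48 to 2.70. By 20 h its sham livers had 5.91, 5.61 and 5.45, and the X20 livers ran from -2.07 through 3.63 to 4.55. At 20 h, then, 4 of the X20 livers (replicates 1 to 4, from 3.15 to 4.55) lay above every X10 liver, whereas replicate 6 lay at -2.07. Car3 showed the opposite order: its 10 h values overlapped between sham (7.81, 8.00 and 7.61) and PH livers (6.59, 7.64 and 7.98 for lowest, median and highest). At 20 h Car3 had 9.01, 8.79 and 7.81 in S20 and from 2.86 through 5.33 to 6.92 in X20, with no overlap. Inmt overlapped at 10 h as well, with 5.50, 5.60 and 4.99 in S10 and from 4.03 through 4.87 to 5.30 in X10. Its 20 h values did not overlap, with 5.68, 6.66 and 5.48 in S20 and from 0.89 through 3.04 to 4.58 in X20. Gm4956 did not overlap at either time. It had 0.30, 0.40 and 1.61 in S10 against -1.71 to 0.23 in X10 (median -1.44), and 2.74, 2.86 and 3.06 in S20 against -1.72 to 0.13 in X20 (median -0.89).

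Whether resection changed these genes before the times of their selection was tested at 1 and 4 h. At 1 h none of the 4 genes passed the test between PH and sham, where 0.650% of all genes did (100 genes; 1430 had an unadjusted p under 0.05). The log2 fold changes were -0.16 ± 0.45 for Car3, -0.37 ± 0.43 for Inmt, -0.24 ± 0.63 for Hsd3b5 and 0.02 ± 0.25 for Gm4956 (SE, limma adjusted p from 0.896 to 1), and the libraries overlapped for each. The 95% intervals reached from -1.06 to 0.73 for Car3 and from -0.49 to 0.53 for Gm4956. At 4 h, where X4 holds only replicates 4 to 6 of the 6 labelled livers, none of the 4 passed either, where 8.64% of all genes did (36.5% of these were higher, or 48.2% with the common median). Car3 nevertheless had 10.07, 10.67 and 9.93 in X4, above all of 9.37, 9.08, 8.58, 9.54 and 9.47 in S4. Its difference was 1.01 ± 0.56 (adjusted p = 0.255), and it passed when only these 2 groups were fitted (adjusted p = 0.0261). Hsd3b5 had 2.49, 2.09 and 1.73 in X4 and 0.67, 2.08, 2.40, 4.16 and 3.80 in S4. The spread of the sham livers covered the PH livers, and the difference of -0.51 ± 0.79 became -1.81 (adjusted p = 0.295) with only replicates 4 and above of both groups. For Inmt the difference was 0.31 ± 0.55 and for Gm4956 -0.13 ± 0.32, with overlapping libraries. With only replicates 4 and above they were 0.03 and -0.65 (limma adjusted p = 0.386 for Gm4956). Gm4956 had 1.97, 1.91 and 2.44 in S4 replicates 1 to 3, and 3.21 and 2.81 in replicates 4 and 5. In X4 it had 2.47, 2.29 and 2.25. Per the study's supplement the S4 livers came from more than 1 experimental period, and the labels do not assign them, so period was not separated here.

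**Figure D2:**
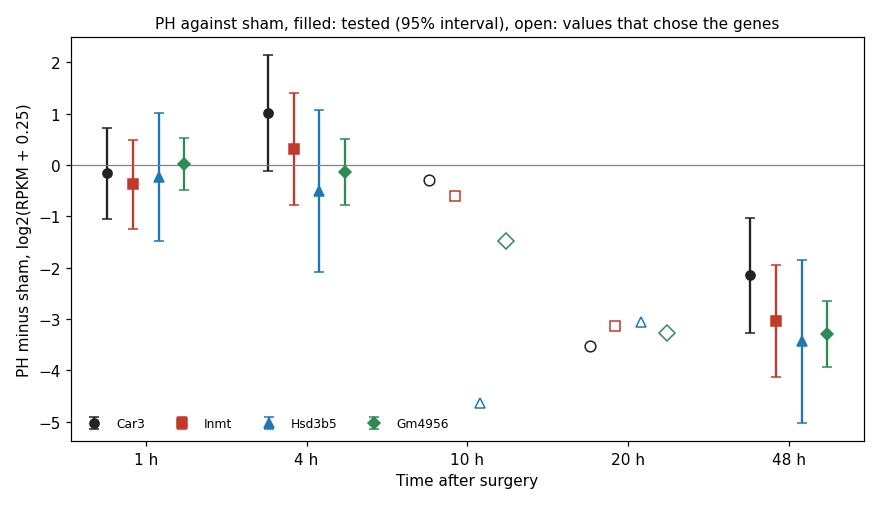
PH minus sham for the 4 genes, as difference of log2(RPKM + 0.25), by hours after surgery. Filled points with 95% intervals are tested times and open points are the values by which the genes were chosen. All intervals include 0 at 1 and 4 h, and all lie below 0 at 48 h, from -2.15 for Car3 to -3.44 for Hsd3b5.

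The 48 h livers were not used in the choice of the genes, and there all 4 genes were lower after PH than after sham, where 2.69% of all genes were called lower and 24.5% higher. Inmt had 2.75, 5.43, 4.99, 5.71 and 3.55 log2 RPKM in X48 and 7.50, 7.75 and 7.41 in S48, and was 8.26-fold lower (log2 fold change -3.05 ± 0.55, limma adjusted p = 5.72e-06). Hsd3b5 had -1.13, 1.14, 1.37, 2.41 and 1.65 in X48 and 6.20, 3.18 and 4.78 in S48, and was 10.8-fold lower (-3.44 ± 0.79, adjusted p = 0.00029). Gm4956 had -2.35, -0.99, -1.86, -0.86 and -2.75 in X48 and 3.56, 1.85 and 1.72 in S48, and was 9.74-fold lower (-3.28 ± 0.32, adjusted p = 2.01e-13). For these 3 genes every PH liver lay below every sham liver, as for 4.42% of all genes. Car3 had 3.15, 6.33, 7.25, 6.49 and 6.05 in X48 and 8.35, 6.95 and 8.75 in S48, so 1 PH liver (replicate 3) lay above 1 sham liver (replicate 2). It was 4.44-fold lower (-2.15 ± 0.56, adjusted p = 0.00136), and the difference was -1.48 (adjusted p = 0.0172) without the lowest liver, X48 replicate 1. That of Hsd3b5 was -2.70 (adjusted p = 0.0145) without S48 replicate 1, and all 4 genes stayed called whichever liver was left out. With the libraries set to a common median, which moved the median of all genes by -0.38, the 4 differences were larger (-2.64 for Car3 to -3.88 for Hsd3b5), while 11.2% of all genes were then called lower and 7.11% higher (38.8% of the calls were higher, against 90.1% without this scaling).

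The difference between PH and sham was itself compared between times. It was more negative at 48 h than at 1 h for all 4 genes, where 2.57% of all genes were called in that direction, by -1.99 ± 0.72 for Car3, -2.67 ± 0.70 for Inmt, -3.20 ± 1.01 for Hsd3b5 and -3.30 ± 0.41 for Gm4956 (SE, limma adjusted p from 1.23e-09 to 0.0278). Against 4 h it was more negative by -3.16 ± 0.80, -3.36 ± 0.77, -2.92 ± 1.12 and -3.16 ± 0.46 in the same order (adjusted p from 6.49e-08 to 0.0318), where 3.36% of all genes were called. With the common median, the share of calls that were higher went from 89.2% to 41.8% against 1 h and from 90.0% to 42.0% against 4 h. The call for Car3 against 1 h was lost without S48 replicate 1 or 3 or X48 replicate 1. That for Hsd3b5 against 1 h was lost without S48 replicate 1, and that against 4 h without any 1 of S4 replicate 1, S48 replicates 1 and 3, X4 replicates 4 and 5 and X48 replicate 1.

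Sham surgery alone was followed by lower levels of these genes. At 4 h, 3 of the 4 genes were lower in sham livers than in unoperated livers of the same ZT, where 31.0% of all genes were called lower (28.3% of calls were higher, or 46.0% with the common median). Hsd3b5 had 6.96, 6.39 and 7.47 log2 RPKM in C4 and between 0.67 and 4.16 in S4, which was 18.9-fold lower (-4.24 ± 0.79, limma adjusted p = 6.17e-06). Inmt, with 9.26, 8.32 and 8.90 in C4 and from 5.75 to 6.99 in S4, was 5.15-fold lower (-2.36 ± 0.55, adjusted p = 0.000182). Gm4956 was 2.08-fold lower (-1.05 ± 0.32, adjusted p = 0.00402). Car3 had 10.97, 9.57 and 10.81 in C4, and its difference of -1.24 ± 0.56 did not pass (adjusted p = 0.0538), although every S4 liver lay below every C4 liver. According to the study's methods these sham livers and the C4 livers belong to different experimental periods, so period and surgery cannot be told apart here.

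At 48 h after sham, 3 of the 4 genes were still lower than in C0 livers, where 5.05% of all genes were called lower. Car3 was 6.82-fold lower (-2.77 ± 0.52, limma adjusted p = 6.83e-05) and Gm4956 was 4.09-fold lower (-2.03 ± 0.29, adjusted p = 3.92e-07), in both cases with every sham liver below every C0 liver, as for 6.90% of all genes. Hsd3b5 was 4.28-fold lower (-2.10 ± 0.72, adjusted p = 0.0344), but 1 sham liver (6.20) lay within the C0 range. That call was lost without S48 replicate 2 (-1.34, adjusted p = 0.326) or 3 and with C0 replicates 1 to 3, 4 to 6 or 7 to 9 alone as the control. Inmt was -0.64 ± 0.50 from C0 (adjusted p = 0.407), with all 3 sham livers below the lowest C0 liver. The S48 livers came from 1 experimental period and the C0 livers from several, so period was not separated from surgery here. As shares of the C0 level (ratios of geometric means), S48 livers had 64.2% of Inmt, 23.4% of Gm4956, 23.1% of Hsd3b5 and 14.6% of Car3. X48 livers had 7.67% of Inmt, 3.28% of Car3, 1.86% of Hsd3b5 and 1.33% of Gm4956.

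From 28 to 44 h after PH the genes stayed at a small share of their resting level. All 4 were lower at 28 h than in C4 livers, where 18.3% of all genes were called lower, at 36 h than in C0 livers (9.29% of all genes) and at 44 h (8.42%). With the common median, the share of calls that were higher went from 73.5% to 38.1% at 36 h and from 78.5% to 33.8% at 44 h. At 28 h Car3 had 6.25, 4.81 and 3.26 log2 RPKM, and it was 50.6-fold lower (-5.66 ± 0.63, limma adjusted p = 8.86e-11). Inmt with 4.12, 3.10 and 1.76 was 54.8-fold lower (-5.78 ± 0.61, adjusted p = 1.85e-11). Hsd3b5 with 2.90, 0.66 and -1.57 was 60.9-fold lower (-5.93 ± 0.88, adjusted p = 1.7e-07), and Gm4956 with -1.65, -2.54 and -1.17 was 21.9-fold lower (-4.45 ± 0.36, adjusted p = 2.17e-15). Without X28 replicate 2, the library that stood apart, the differences were -5.68, -5.82, -5.86 and -4.26 in the same order, and all were called. All 4 genes lay below the control livers without overlap at each of these times, as did 29.0% of all genes at 28 h, 4.98% at 36 h and 7.64% at 44 h. The X36 livers were taken at ZT14 and the X44 livers at ZT22, whereas the C0 livers were taken at ZT2, so hour of day and feeding cannot be told apart from the resection in those comparisons. The X28 and C4 livers also belong to different experimental periods, which cannot be told apart from the resection. The C0 livers come from several periods and the X44 livers from a single one, so period was not separated from resection there either.

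At 36 h the largest difference was that of Hsd3b5. Its X36 livers ran from -1.87 through a median of -0.47 to 1.29 log2 RPKM, 106-fold lower than C0 on the log2(RPKM + 0.25) scale (-6.72 ± 0.57, limma adjusted p = 2.18e-16). Car3, from 4.82 through 5.34 to 5.97, was 44.1-fold lower (-5.46 ± 0.41, adjusted p = 7.85e-19). Gm4956, from -2.34 through -1.41 to 0.06, was 33.1-fold lower (-5.05 ± 0.23, adjusted p = 5.01e-29). Inmt was by then less far down than at 28 h: it ran from 3.52 through 5.14 to 7.08 and was 7.92-fold lower (-2.98 ± 0.39, adjusted p = 1.2e-09). At 44 h the differences were -4.98 ± 0.52 for Car3 (5.87, 6.03 and 5.49), -3.23 ± 0.50 for Inmt (4.46, 4.26 and 6.13), -6.10 ± 0.72 for Hsd3b5 (-0.56, 0.51 and 1.46) and -5.16 ± 0.29 for Gm4956 (-1.43, -1.52 and -1.25), with adjusted p from 2.29e-24 to 9.74e-08. The pseudocount holds back the fold changes of the low genes: the plain difference of mean log2 RPKM at 36 h was -7.19 for Hsd3b5 and -5.76 for Gm4956.

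The lowest group mean fell at 10, 20 or 28 h after PH, depending on the gene. Car3 was lowest in X28 (4.77 log2 RPKM, 1.55% of C0), Inmt in X20 (2.74, 2.29%), Hsd3b5 in X10 (-0.91, 0.464%) and Gm4956 in X28 (-1.79, 1.31%). The 10 and 20 h values chose the genes, so the low points of Inmt and Hsd3b5 are a description only. When the 19 group means of each gene were put in order, most neighbours did not differ beyond their spread: libraries of neighbouring groups were separate in 7 of 72 pairs. For Car3 the separate pair was X4 above X1W. For Inmt the pairs were C0 above X4W and X1W above X4, for Hsd3b5 C4W above X4W and X1 above S20, and for Gm4956 X4W above C4 and X4 above S10.

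At 72 h all 4 genes were lower than in C0 livers, where 6.59% of all genes were called lower (80.1% of calls were higher, or 40.8% with the common median). Car3 had 4.88, 8.12 and 7.83 log2 RPKM in X72 (-3.84 ± 0.52, limma adjusted p = 4.54e-09) and Inmt had 5.28, 6.20 and 6.80 (-2.09 ± 0.50, adjusted p = 0.000323). Hsd3b5 had -0.83, 2.18 and 0.51 (-5.94 ± 0.72, adjusted p = 2.83e-10) and Gm4956 had -1.15, 0.62 and 1.12 (-3.96 ± 0.29, adjusted p = 2.28e-18). In this group replicate 1 was the lowest liver for all 4 genes, and without it the difference of Car3 was -2.81 (adjusted p = 3.08e-05). The X72 livers had 1.35% of the C0 level of Hsd3b5, 5.16% of that of Gm4956, 6.97% of that of Car3 and 23.4% of that of Inmt (ratios of geometric means), and they were not tested against the 48 h livers.

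At 1 week, 3 of the 4 genes were higher than at 72 h, where 4.12% of all genes were called higher (25.3% of calls, or 50.9% with the common median). Car3 had 9.60, 9.72 and 9.32 in X1W and was 6.07-fold higher (2.60 ± 0.63, limma adjusted p = 0.00143), or 1.57 (adjusted p = 0.0967) without X72 replicate 1. Hsd3b5 had 4.25, 5.49 and 3.07 and was 10.5-fold higher (3.39 ± 0.88, adjusted p = 0.003). Gm4956 had 2.79, 3.38 and 3.29 and was 6.33-fold higher (2.66 ± 0.36, adjusted p = 3.67e-08). Inmt had 7.49, 7.23 and 7.30, all above the X72 livers, but its difference of 1.24 ± 0.61 did not pass (adjusted p = 0.137).

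The 1 week livers had not reached the resting level for every gene. Against C0, 2 of the 4 genes were called lower, where 4.48% of all genes were (73.5% of calls were higher, or 36.0% with the common median). Hsd3b5 was 5.85-fold lower (-2.55 ± 0.72, limma adjusted p = 0.00444), a call lost without X1W replicate 3 (-1.96, adjusted p = 0.0941), and Gm4956 was 2.45-fold lower (-1.29 ± 0.29, adjusted p = 0.000449). Car3 was at -1.24 ± 0.52 (adjusted p = 0.0554) and Inmt at -0.85 ± 0.50 (adjusted p = 0.19). For all 4 genes every X1W liver lay below every C0 liver, as for 6.07% of all genes. The difference of Car3 passed with the libraries set to a common median (-1.46, adjusted p = 0.0231).

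At 4 weeks none of the 4 genes passed the test against the unoperated livers of that time, where 0.0650% of all genes did (10 genes; 625 had an unadjusted p under 0.05). Car3 had 10.93 and 10.38 log2 RPKM in X4W and 10.96 and 11.07 in C4W, a difference of -0.36 with a 95% interval from -1.90 to 1.18. Inmt had 7.90 and 7.90 against 7.62 and 7.70 (0.24, -1.25 to 1.74). Hsd3b5 had 6.97 and 7.18 against 7.20 and 7.28 (-0.17, -2.33 to 2.00), and Gm4956 had 4.26 and 3.83 against 4.37 and 4.22 (-0.25, -1.13 to 0.63). The livers of the groups did not overlap for Car3, Inmt and Hsd3b5, which with so few livers held for 50.1% of all genes. With 2 livers a group these intervals were wide, and differences inside them were not excluded.

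Livers of the same group differed from each other in a way that 3 of the genes shared. The correlation of the deviations from the group means over 80 libraries was 0.68 between Car3 and Hsd3b5, 0.65 between Car3 and Inmt and 0.54 between Inmt and Hsd3b5 (Pearson, a description without a test, since livers of a group share their treatment). Gm4956 deviated less with the others, at 0.34 with Car3, 0.33 with Inmt and 0.33 with Hsd3b5. From X10 to X48 its values rested on 4 to 32 reads a library, at 0.149 to 1.18 RPKM beside a pseudocount of 0.25. Its deviations in those groups are thus held back and carry a large counting error. The part of this in its lower correlations was not tested. In 7 of the 80 libraries at least 3 of the 4 genes lay more than 0.5 below their group mean: C4 replicate 2, S48 replicate 2, X20 replicates 5 and 6, X28 replicate 3, X48 replicate 1 and X72 replicate 1. In X20 replicate 6 the deviations were -2.10 for Car3, -1.75 for Inmt, -3.64 for Hsd3b5 and -0.52 for Gm4956. In X48 replicate 1 they were -2.68, -1.71, -1.81 and -0.34. In X20, replicates 1 to 3 all lay above replicates 4 to 6 for Car3, Inmt and Hsd3b5, but not for Gm4956. In X36 these sets of replicates overlapped for each of the 4 genes. Per the study's supplement the X20 and X36 livers came from more than 1 experimental period, which the labels do not assign. Period was therefore not separated from differences between single livers. Within groups, the mean deviation of the 4 genes went with depth at r = 0.02, with the summed hepatocyte markers at 0.25, with adipocyte markers at -0.43, with macrophage and Kupffer cell markers at -0.38 and with neutrophil markers at -0.32. The part of these in the results was not tested.

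**Figure D3:**
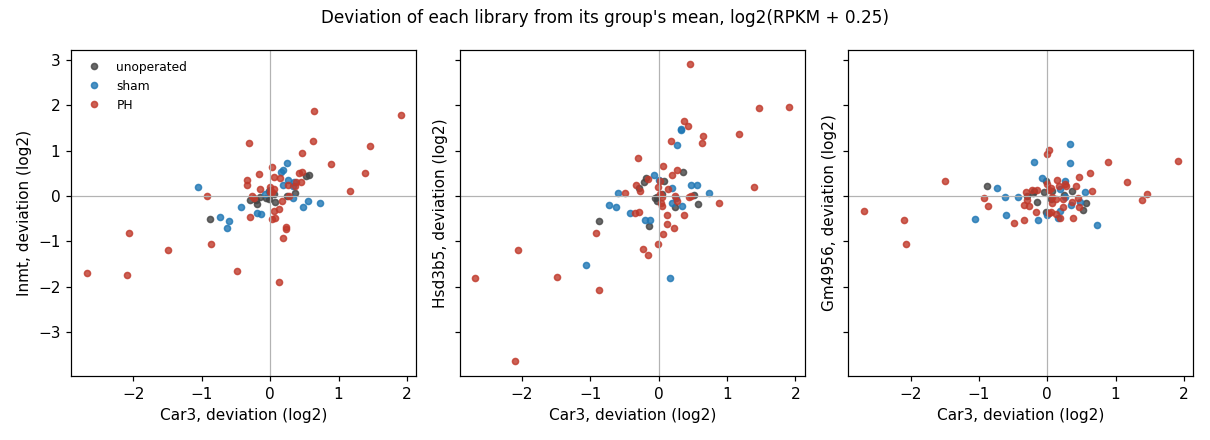
Deviation of each of 80 libraries from its group's mean, in log2(RPKM + 0.25), for Car3 on the horizontal axes and Inmt, Hsd3b5 and Gm4956 on the vertical axes, with points for unoperated, sham and PH livers. Libraries low in Car3 were mostly low in Inmt and Hsd3b5 (r = 0.65 and 0.68), and less so in Gm4956 (r = 0.34). The values of Gm4956 in X10 to X48 rested on few reads.

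Over the 19 group means, the genes whose course was most like that of each of the 4 were picked by Pearson correlation among 11560 other genes with a group mean above 0 log2 RPKM. The points share the same livers and a common time course, so the values are a description. For Car3 they were its chromosomal neighbour Car1 (r = 0.97; 0.95 over 80 libraries), Ces1e (0.96), a carboxylesterase, Gm4956 itself (0.95), Ugt2b1 (0.95), which conjugates glucuronic acid, and Hsd11b1 (0.95), which forms active glucocorticoid. For Inmt they were Aadac (0.93), the mitochondrial urea cycle gene Otc (0.93), Fahd2a (0.92), Gsto1 (0.92) and the hepatic lipase gene Lipc (0.92). For Gm4956 they were 1300017J02Rik (0.97), Car1 (0.96), Il1rap (0.95), the pyruvate kinase gene Pklr (0.95) and Hsd11b1 (0.95). For Hsd3b5 they were Gm13824 (0.97), Hsd3b4 (0.97), Gm10681 (0.96), 2310001H17Rik (0.95) and Lrit2 (0.94). Hsd3b4 and Gm10681 share 100-base windows with Hsd3b5 and had means of 0.85 and 0.88 log2 RPKM in C0, against 6.84 for Hsd3b5, so part of their signal may be reads of Hsd3b5. The 19 group means include those of the groups whose values chose the 4 genes. The likeness of Car3 and Gm4956 was thus partly set by that choice, and how much was not tested.

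Relatives of the genes were counted at 48 h. The counts leave out the 4 genes themselves and stand beside 2.69% of all genes called lower, 24.5% called higher and a median log2 fold change over all genes of 0.27. Gm4956 was set beside the alpha-class glutathione S-transferase genes, near one of which it lies, and whether it belongs to that family was not tested. Of 8 other carbonic anhydrase genes tested, 2 were lower in PH than in sham livers and 1 was higher (median -0.26): Car1 fell by 1.94 and Car11 by 0.86 on the log2 scale, and Car2 rose by 1.30 (limma adjusted p = 7.33e-07). Of 18 other genes for small-molecule methyltransferases and the methyl cycle, 1 was lower and 2 were higher (median -0.10). The lower gene was Gnmt, the glycine N-methyltransferase of the liver, at -0.93 (adjusted p = 5.33e-05). The higher genes were Mat2a, the S-adenosylmethionine synthetase gene of growing cells, at 1.31 (adjusted p = 2.37e-09) and Tpmt at 0.66. Of 6 other alpha-class glutathione S-transferase genes, Gsta3 was lower at -0.69 (adjusted p = 0.00234) and Gm3776 higher at 1.62 (adjusted p = 0.0456), with a median of 0.35.

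The Hsd3b family and other steroid-converting enzymes had 6 of 15 other genes lower and 1 higher (median -0.22). Hsd11b1 fell by 1.32, Hsd3b4 by 1.25 and Hsd3b2 by 1.17, and Cyp17a1, which makes androgen precursors in steroid-producing tissue, rose by 1.63 on the log2 scale (limma adjusted p = 0.0125). The other 3 lower genes were Hsd3b3, Hsd3b6 and Hsd17b2. With the libraries set to a common median, 5 other carbonic anhydrase genes, 10 of the methyltransferase list and 8 of the steroid list were lower, beside 11.2% of all genes, and Tpmt, Gm3776 and Cyp17a1 were no longer called. Car2 and Mat2a stayed higher under that scaling, at 0.83 and 0.82. Hsd3b2, Hsd3b3 and Hsd3b6, named after their values were seen, had their lowest group mean of the course drawn below at 10 h. These means were -0.91, 0.92 and -4.45 log2 RPKM against 4.17, 6.77 and 1.64 in C0. Hsd3b5 was lowest at 10 h as well, a time whose values chose it.

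**Figure D4:**
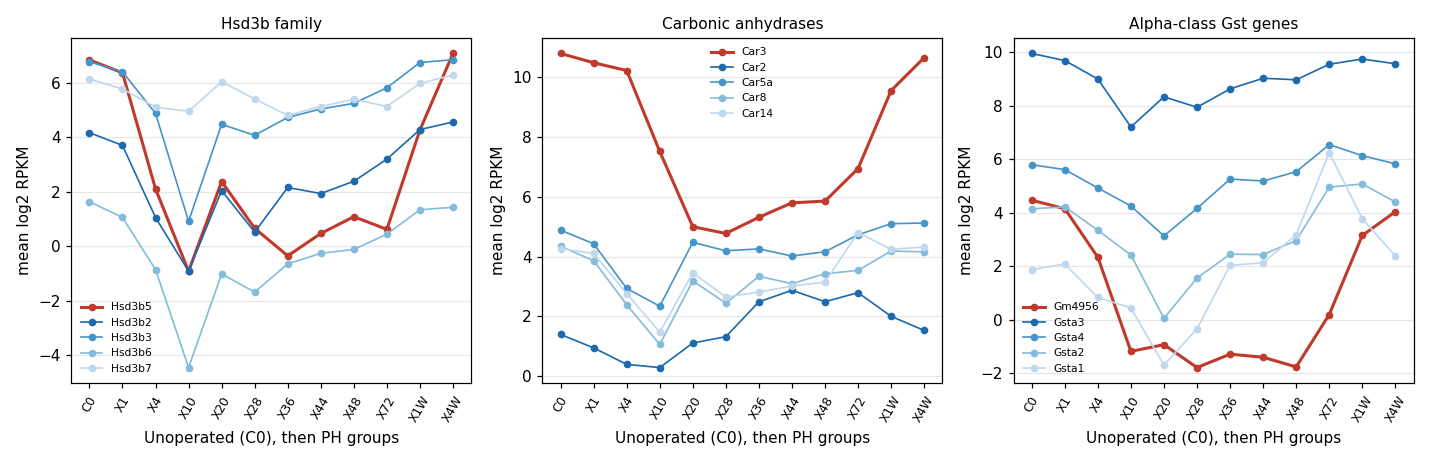
Mean log2 RPKM in C0 and the PH groups (horizontal axis) for Hsd3b5, Car3 and Gm4956 (red) and 4 relatives of each (blue). Hsd3b2, Hsd3b3 and Hsd3b6 shared the low point of Hsd3b5 at 10 h, a time whose values chose Hsd3b5. At 72 h, when Hsd3b5 was still at 0.62, Hsd3b3 was at 5.82. Gsta3 had means of 9.96 in C0 and 8.98 in X48, where Gm4956 had 4.47 and -1.76.

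Genes with a higher level in male mouse livers were described as a list because Hsd3b5 belongs to it. At 48 h, 7 of 16 others were lower in PH than in sham livers and none was higher, with a median of -0.65, beside 2.69% of all genes lower and 24.5% higher. Elovl3, a fatty acid elongase gene, fell by 1.92 (limma adjusted p = 0.000435), Nudt7 by 1.51 and Mup21, of the major urinary proteins, by 1.41 on the log2 scale. At 1 week against C0, 7 of 16 others were lower and 1 higher, with a median of -0.78, beside 4.48% of all genes lower and a median of 0.12. Of 15 genes with a higher level in female livers, 4 were higher and 1 lower at 48 h (median 0.56), which for the higher genes is near the 24.5% of all genes. Abcd2 rose by 1.37, Prom1 by 1.19 and Cyp3a44 by 0.97, and Fmo2 fell by 0.78. With the libraries set to a common median, 2 were higher (Abcd2 and Prom1) and 1 lower (Fmo2), while 9 of 16 male-biased genes were lower, beside 11.2% of all genes. Of 13 genes of the growth hormone receptor and STAT5, 2 were lower and 1 higher (median -0.25). Socs2, a feedback inhibitor that STAT5 induces, fell by 1.69 (adjusted p = 0.0211) and the growth hormone receptor gene Ghr by 0.88 (adjusted p = 1.63e-06), and Stat5a rose by 0.65 (adjusted p = 0.011). With a common median 7 were lower and Stat5a was no longer called.

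Since Car3 is also abundant in fat and muscle, markers of those tissues were examined beside it. The summed RPKM of 8 adipocyte markers was from 8.81 to 12.4 in S48 and from 15.4 to 43.4 in X48. Fabp4 was the highest of them. Only 4 of the 8 could be tested, and with the common median 1 was called higher and none lower. The sum of 8 skeletal muscle markers was low in both groups (0.411 to 0.55 in S48, 0.41 to 0.815 in X48), and only 1 of the 8 could be tested. Summed hepatocyte markers were from 49400 to 59600 in S48 and from 42300 to 47200 in X48, and 5 of the 12 were called lower (median -0.36), or 10 with the common median. Macrophage and Kupffer cell markers (7 genes, 36.2 to 60.0 against 28.4 to 52.9) and neutrophil markers (8 genes, 3.32 to 6.86 against 1.64 to 7.75) overlapped between S48 and X48. The sums of stellate and mesothelial markers (9 genes) were higher after PH, at 61.2 to 104 against 48.6 to 54.3. Of the 8 tested, 3 were called higher (2 with the common median). Cholangiocyte markers (6 genes) had higher sums as well, at 31.7 to 44.4 against 19.6 to 29.5. Of the 5 tested, 1 was called higher (none with the common median). The share of all genes called higher was 24.5%, or 7.11% with the common median, so the cholangiocyte call is near that of all genes. Of 9 pancreas acinar markers, none passed the filter on low values, and Prss1 was at 0 in every library. The part of these cell types in the falls was not tested.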

How the data were processed

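RNA was measured by strand-specific RNA-Seq of single livers (100 nt reads). Per the submitters' processing notes and methods, the authors mapped the reads to mm9 with TopHat2 2.0.13, Bowtie2 and SAMtools 0.1.19, counted them by strand over genes with featureCounts, gave reads with several positions a fraction at each, and deposited log2 RPKM values. Of 84 columns, 80 matched a labelled sample and were used. The other 4 are named like further 4 h sham livers but match no labelled sample. The 7 labelled samples with no matched column (4 h PH replicates 1 to 3, the 60 h PH livers and 4 week PH replicate 3) were not analysed here. Genes above -1.5 log2 RPKM in at least 1 library were kept. One fit over 19 groups was made on log2(RPKM + 0.25) with limma 3.58.1 (trended eBayes, R 4.3.3). P-values were adjusted by Benjamini-Hochberg for each comparison, and calls needed an adjusted p under 0.05 and a log2 fold change beyond 0.5 either way. The labels name separate livers but no batch, so p-values measure the spread between these livers. The study's supplement places the livers in several experimental periods, and the fit held no term for them. C0 livers came from all of these periods, and C4, S48, X28, X44, X48, X72 and X1W livers from a single one each. X10 and X20 livers came from more periods than S10 and S20 livers. In such comparisons period was not separated from surgery or time. The fit was tested on simulated data. Depth was estimated from the value of 1 read, with exon lengths from GENCODE vM1.

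The 4 genes and all gene lists were chosen with earlier results of these data known. Named besides the 4 genes were the 5 genes most like each of them, the genes at places 1 to 6 of the falls at 10 and 20 h, at most 4 falls and 3 rises of each list called at 48 h, and the highest gene of a marker list. Replicate numbers did not pair the livers: in none of 13 comparisons were all correlations of same-numbered deviations above 0.1. Alternatives were other pseudocounts, filters and scaling, fits of the compared groups alone, the replicate block, subsets of replicates and each library left out.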

Additional observations from a re-analysis of the deposited data

Results flagged for a closer look

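In 32 sets of 1 gene and 1 group of 4 to 10 livers, 4 livers stood far from the rest of their group by Dixon's test, which chance does in about 1 of 20 groups. Car3 was lowest in X1 replicate 4 (10.15 log2 RPKM) and Inmt in X1 replicate 5 (5.58), while Inmt was highest in C0 replicate 9 (8.66) and Gm4956 in X10 replicate 3 (0.23).

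The difference between PH and sham livers changed with time in all 4 genes, by a test of the change itself in limma. From 1 to 48 h it moved by -1.99 for Car3, -2.67 for Inmt, -3.20 for Hsd3b5 and -3.30 for Gm4956 on the log2 scale. From 4 to 48 h it moved by -3.16 for Car3, -3.36 for Inmt, -2.92 for Hsd3b5 and -3.16 for Gm4956.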

How the results depend on the processing

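Of 504 values of the 60 comparisons of single genes under alternatives that kept all livers of a group or a subset of replicates, 478 kept direction and call, as did 624 of 652 with 1 liver left out. The cause of the changes below was not tested. At 1 h, PH minus sham was 0.26 for Car3 and 0.18 for Inmt with replicates 1 to 3 only, and for Gm4956 -0.26 with replicates 4 to 6 and -0.031 with the libraries set to a common median. With only the compared groups fitted, Car3 passed at 4 h (1.01), in S4 against C4 (-1.24) and in X1W against C0 (-1.24), and Inmt passed in S48 against C0 (-0.64), X1W against C0 (-0.85) and X1W against X72 (1.24). Car3 in S4 against C4 also passed with a pseudocount of 1 (-1.24) or a stricter filter (-1.24), and in X1W against C0 with the stricter filter (-1.24) or the common median (-1.46). Calls were lost for Hsd3b5 in S48 against C0 with a pseudocount of 0.1 (-2.11), no filter (-2.10) and C0 replicates 1 to 3 (-2.44), 4 to 6 (-1.79) or 7 to 9 (-2.06), and in X1W against C0 with C0 replicates 4 to 6 (-2.24). Without the filter, Car3 lost its change from 1 to 48 h (-1.99) and Hsd3b5 that from 4 to 48 h (-2.92). In C4 against C0, Gm4956 lost its call with a pseudocount of 0.1 (-0.91) and C0 replicates 7 to 9 (-0.73), and Hsd3b5 was -0.24 with C0 replicates 1 to 3.

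With 1 liver left out, values ran from -0.50 to 0.0025 (Inmt) and -0.062 to 0.12 (Gm4956) at 1 h, and from -0.26 to 0.051 (Gm4956) at 4 h. They ran from -1.68 to -0.98 for Car3 in S4 against C4, where it passed without C4 replicate 2, and from -2.83 to -1.34 for Hsd3b5 in S48 against C0. In C4 against C0 they ran from -0.59 to 0.10 (Car3), -0.16 to 0.38 (Hsd3b5) and -1.01 to -0.74 (Gm4956). They ran from -3.15 to -1.96 for Hsd3b5 in X1W against C0 and from 1.57 to 3.19 for Car3 in X1W against X72. For the change from 1 to 48 h they ran from -2.52 to -1.32 (Car3) and -3.96 to -2.47 (Hsd3b5), and from 4 to 48 h from -3.68 to -2.19 (Hsd3b5). In 4-week groups a lone liver was assumed to vary like the other groups.

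Same-numbered livers were not paired (43 correlations from -0.19 to 0.30), and the replicate block changed 1 of 60 calls: Hsd3b5 in S48 against C0 was -2.07 (limma adjusted p = 0.105). Over all genes, calls at 48 h ran from 1094 to 4125 higher and from 292 to 1723 lower across the alternatives, with the common median giving 1094 and 1723.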

Other observations

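Among genes compared with the mean deviation of the 4 genes within groups, over 80 libraries and after their values were seen, the steroid dehydrogenase genes Hsd3b3 (r = 0.82) and Hsd3b2 (0.79), the transporter gene Slc22a30 (0.80) and the cytochrome P450 genes Cyp4f14 (0.78) and Cyp1a2 (0.77) went most closely with it. Igdcc4 (-0.78), Bmper (-0.76), Ddx28 (-0.68) and the chemokine gene Cxcl13 (-0.67) went the other way. These values are a description, since the livers of a group share their treatment.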
